A study of Mus musculus with 7 samples.

Results

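The genes described here mark the 2-cell-like state of mouse pluripotent cells. In cultures of mouse embryonic stem cells (ESC) a few cells at any time switch on transcripts that the embryo otherwise makes around the 2-cell stage, when its own genome is first transcribed, and later switch them off again. Zscan4 genes encode zinc finger proteins with a SCAN domain, are switched on at that stage, and are known in mouse ESC for a role in keeping telomeres long. The state is known to be driven by the homeodomain factor DUX and to be held back by chromatin regulators. A list of 10 genes was drawn up by symbol, and 9 of the 10 were measured, each by 1 probe set with a single gene symbol, among the 22180 genes of the array. They are Zscan4b, Zscan4c, Zscan4d, Zscan4e, Tcstv1, Tcstv3, Zfp352, Tdpoz4 and Tmem92. The remaining gene, Zscan4f, had no probe set of its own and was not analysed here as a gene.

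RNA was measured on 7 single-colour Affymetrix arrays of mouse cells, all labelled strain 129 and none listed with a drug or time course. The groups were 2 arrays of induced pluripotent stem cells (iPSC) lacking Nanog (Nanog KO), 2 of wild-type (WT) iPSC, 1 of WT ESC, 1 of Nanog KO embryonic fibroblasts (MEF) and 1 of WT MEF. Nanog encodes a homeodomain protein that helps to maintain pluripotency, and the series asks how KO iPSC compare with WT pluripotent cells. By their labels the iPSC arrays are biological replicates, but the labels do not say whether the 2 arrays of a genotype are separate lines or cultures of 1 line, nor which of 3 media (ESC, 2i/LIF or MEF) each sample was grown in, so p-values measure only the spread between these samples. Group and medium cannot be told apart here.

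All levels below are log2 intensities of a probe set, and differences are log2 differences. A level cannot be set against that of another probe set. As a measure of background, 1394 genes of olfactory and vomeronasal receptors were used, and the level that 95 percent of them stayed under was between 6.30 and 6.50, depending on the array. Array medians lay between 7.05 and 7.13. Nanog stood at 7.50 and 7.44 in KO iPSC, against 12.84 and 12.76 in WT iPSC and 12.73 in WT ESC, and at 6.42 in KO MEF and 6.53 in WT MEF. Its level therefore fitted the genotype labels of the pluripotent arrays. Pluripotency markers (12 of 12 measured) had median levels of 11.48 and 11.46 in KO iPSC, 11.76 and 11.67 in WT iPSC, 11.41 in WT ESC, 6.22 in KO MEF and 6.31 in WT MEF. Of the 22 fibroblast markers measured, all 22 were higher in WT iPSC replicate 1 than in replicate 2, against 48.9% of all genes. Their intensities summed to 19755 and 19992 in KO iPSC, 48448 and 25690 in WT iPSC and 31656 in WT ESC. In MEF they summed to 127883 (KO) and 101456 (WT). A sum leans on the brightest probe sets, such as Fn1 at 13.19 and 13.18 in KO iPSC. Median levels of the 22 were 7.39 and 7.20 in KO iPSC, 9.54 and 7.76 in WT iPSC and 8.58 in WT ESC. In MEF the medians were 12.36 (KO) and 11.95 (WT).

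The 6 Zscan4 genes, Zscan4a to Zscan4f, lie in one run on chromosome 7 of the RefSeq annotation of GRCm38.p6, with 24 other genes between the first and the last. RefSeq lists 4 of them, Zscan4b, Zscan4c, Zscan4d and Zscan4f, as protein coding and Zscan4e as a pseudogene. Tcstv1 and Tcstv3 lie on chromosome 13, Zfp352 on chromosome 4, Tdpoz4 on chromosome 3 and Tmem92 on chromosome 11. The upstream sequences of the 4 coding Zscan4 copies are shown to describe how alike the copies are there. They lie before the RefSeq start, so their likeness does not show what a probe set can tell apart. Zscan4b, Zscan4c and Zscan4d were measured singly, and Zscan4f was not. Each run is the 150 bases before the RefSeq start, 5′ to 3′ on the gene's strand, on GRCm38.p6: Zscan4b at chr7:10905051-10905200 (minus strand), Zscan4c at chr7:11005595-11005744 (plus strand), Zscan4d at chr7:11166149-11166298 (minus strand) and Zscan4f at chr7:11397765-11397914 (plus strand). Capitals mark a pair of facing half-sites, TGAT and AATCA with any 2 bases between them, and a TATAAA box.
Zscan4b: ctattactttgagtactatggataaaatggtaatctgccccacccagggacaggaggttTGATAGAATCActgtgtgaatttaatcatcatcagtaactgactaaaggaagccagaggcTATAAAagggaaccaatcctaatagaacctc
Zscan4c: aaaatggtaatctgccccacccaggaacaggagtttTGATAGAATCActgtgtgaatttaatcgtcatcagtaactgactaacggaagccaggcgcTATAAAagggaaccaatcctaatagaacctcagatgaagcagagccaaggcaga
Zscan4d: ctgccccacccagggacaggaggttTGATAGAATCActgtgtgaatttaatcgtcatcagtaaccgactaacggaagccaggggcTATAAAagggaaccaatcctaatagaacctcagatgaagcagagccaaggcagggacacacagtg
Zscan4f: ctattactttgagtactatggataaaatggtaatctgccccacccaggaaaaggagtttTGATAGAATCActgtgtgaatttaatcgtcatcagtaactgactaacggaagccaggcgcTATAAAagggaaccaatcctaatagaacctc

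All 4 windows carried the same match, TGATAGAATCA, followed by TATAAA. Over the 300-base windows of the reference table (250 before and 50 after the start), aligned pairs of these genes were 95.3% to 99.3% identical, with Zscan4c and Zscan4f the closest at 275 of 277 aligned bases. The pair of half-sites, chosen after the sequences were seen and searched on both strands, was present in 28 of 32851 windows of 150 bases (0.0852%), and TATAAA in 7.57%. Of the 28 genes whose window held it, 20 were measured, and 4 of these were more than 2-fold higher in WT iPSC replicate 1 than in replicate 2, namely Zscan4b, Zscan4c, Zscan4d and Serpinf1, against 1.26% of all genes. The first 3 of these supplied the motif, so they are no evidence for it. Serpinf1 was highest in MEF, at 10.83 in KO MEF and 10.67 in WT MEF. Windows were also on hand for Zfp352 and Tdpoz4, and neither held either motif as spelled.

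Zscan4 transcripts were abundant in both KO iPSC arrays and in 1 of the 2 WT iPSC arrays, lower in the other WT iPSC array and lower again in WT ESC. Zscan4b stood at 10.25 and 10.33 in KO iPSC, at 10.51 and 8.53 in WT iPSC, at 7.11 in WT ESC, at 5.38 in KO MEF and at 5.02 in WT MEF. Zscan4e, the annotated pseudogene copy, stood at 11.22 and 11.09 in KO iPSC, at 11.28 and 9.23 in WT iPSC, at 7.75 in WT ESC, at 4.32 in KO MEF and at 4.62 in WT MEF. For both genes WT iPSC replicate 1 was the highest array, the KO pair lay just under it, and the KO and WT iPSC groups overlapped.

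Zscan4c stood at 9.20 and 9.22 in KO iPSC, at 9.14 and 7.25 in WT iPSC, at 6.15 in WT ESC, at 5.88 in KO MEF and at 5.55 in WT MEF. Zscan4d stood at 8.02 and 8.28 in KO iPSC, at 8.53 and 7.03 in WT iPSC, at 6.44 in WT ESC, at 6.06 in KO MEF and at 6.09 in WT MEF. Both KO arrays were above each WT pluripotent array for Zscan4c, but by 0.05 at the nearest pair of arrays, and for Zscan4d they lay between the 2 WT iPSC arrays. Zscan4c was above background on the 4 iPSC arrays only, whereas Zscan4b, Zscan4d and Zscan4e were above it on all 5 pluripotent arrays, Zscan4d in WT ESC by 0.14.

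Tmem92, which encodes a transmembrane protein, also had WT iPSC replicate 2 and then WT ESC below the other 3 pluripotent arrays, without being a Zscan4 copy. It stood at 8.63 and 8.34 in KO iPSC, at 9.03 and 7.49 in WT iPSC, at 7.03 in WT ESC, at 6.58 in KO MEF and at 6.73 in WT MEF. It was above background on all 7 arrays, the MEF included.

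The other 4 genes gave little or no signal. Zfp352, a zinc finger gene transcribed in the early mouse embryo, stood at 6.38 and 5.95 in KO iPSC, at 6.88 and 6.43 in WT iPSC, at 6.70 in WT ESC, at 5.88 in KO MEF and at 6.15 in WT MEF. It was above background on the 3 WT pluripotent arrays only, and there by at most 0.44. Tcstv1 and Tcstv3, a pair of related 2-cell-stage genes, and Tdpoz4, of a family with a POZ domain, were below background on all 7 arrays. Tcstv1 ranged between 3.89 and 4.62, Tdpoz4 between 4.14 and 4.89 and Tcstv3 between 4.61 and 5.96, the last in KO iPSC replicate 2.

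**Figure D1:**
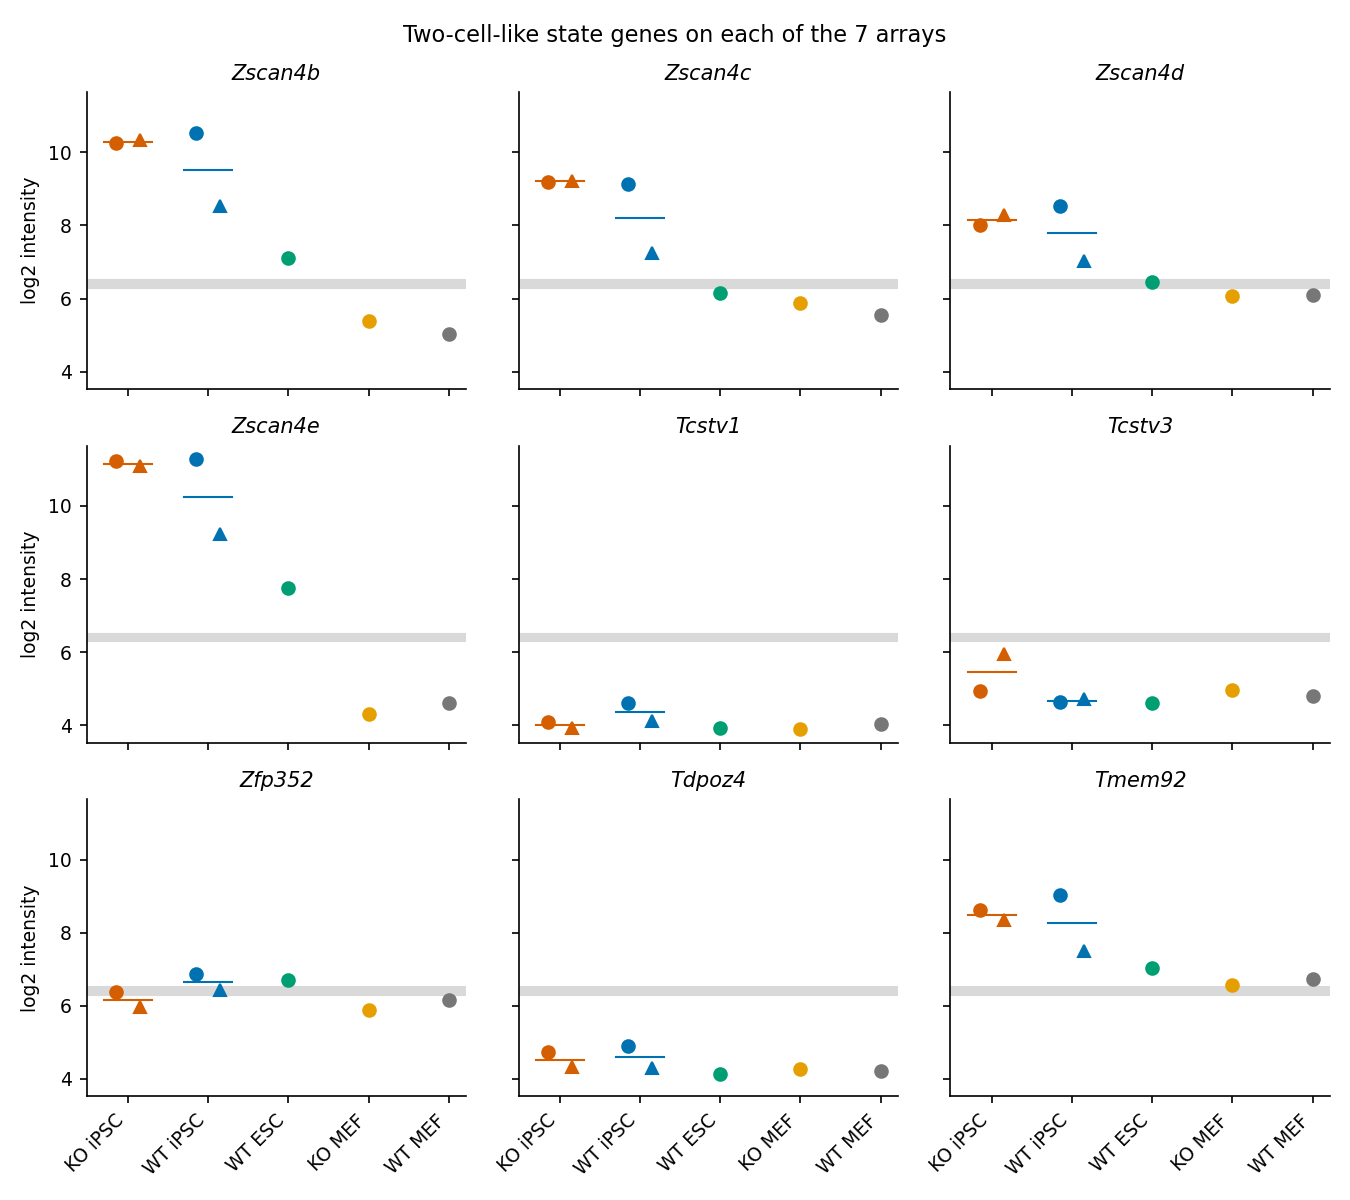
Log2 intensity (vertical axis) of the 9 measured genes on the 7 arrays, by group along the horizontal axis. Circles are replicate 1 or a single array, triangles replicate 2, bars the means of the pairs, and the grey band spans the background of the arrays. The 4 Zscan4 genes and Tmem92 have both KO iPSC arrays and WT iPSC replicate 1 close together at the top, WT iPSC replicate 2 below them, then WT ESC, then the MEF.

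The Zscan4 probe sets cannot be read as independent measurements. Another 2 probe sets carry the symbols of all 6 Zscan4 genes together, Zscan4f among them. One stood at 9.40 and 9.20 in KO iPSC, 9.52 and 7.31 in WT iPSC, 6.07 in WT ESC, 4.99 in KO MEF and 4.99 in WT MEF. The other stood at 10.26 and 10.31 in KO iPSC, 10.39 and 8.65 in WT iPSC, 7.14 in WT ESC, 5.33 in KO MEF and 5.53 in WT MEF. Like the single-symbol probe sets, they had WT iPSC replicate 2 and then WT ESC below the other 3 pluripotent arrays, and binding of one copy's transcript to another copy's probes was not tested. In these bulk samples, fewer cells in the 2-cell-like state and less RNA per such cell cannot be told apart.

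The KO iPSC replicates lay closer together in the 4 Zscan4 genes and Tmem92 than the WT iPSC replicates did. Within the KO pair these 5 genes differed by 0.09 (Zscan4b), 0.03 (Zscan4c), 0.26 (Zscan4d), 0.13 (Zscan4e) and 0.29 (Tmem92). In that pair 9.08% of all genes were at least as far apart as Zscan4d and 6.61% as Tmem92. The share was 50.3% for Zscan4b, 82.2% for Zscan4c and 33.6% for Zscan4e. The median absolute difference was 0.26 over the 9 genes, against 0.088 over all genes. A single gene of the 9 was past 2-fold in the KO pair, Tcstv3, higher in replicate 2 by 1.02, in a pair where 0.018% of all genes were past 2-fold. No gene of the array differed more within that pair, but both Tcstv3 values lay below background.

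WT iPSC replicate 1 exceeded replicate 2 by 1.98 for Zscan4b (3.94-fold), 1.89 for Zscan4c, 1.50 for Zscan4d, 2.05 for Zscan4e (4.14-fold) and 1.54 for Tmem92. Thus 5 of 9 genes were more than 2-fold higher in WT iPSC replicate 1, a distance that 1.26% of all genes passed in that direction. Zscan4e was matched or exceeded by 0.311% of all genes, in either direction. The median absolute difference within the WT pair was 1.50 over the 9 genes, against 0.136 over all genes. With 1 pair per genotype, the difference in spread between KO and WT iPSC was not tested.

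**Figure D2:**
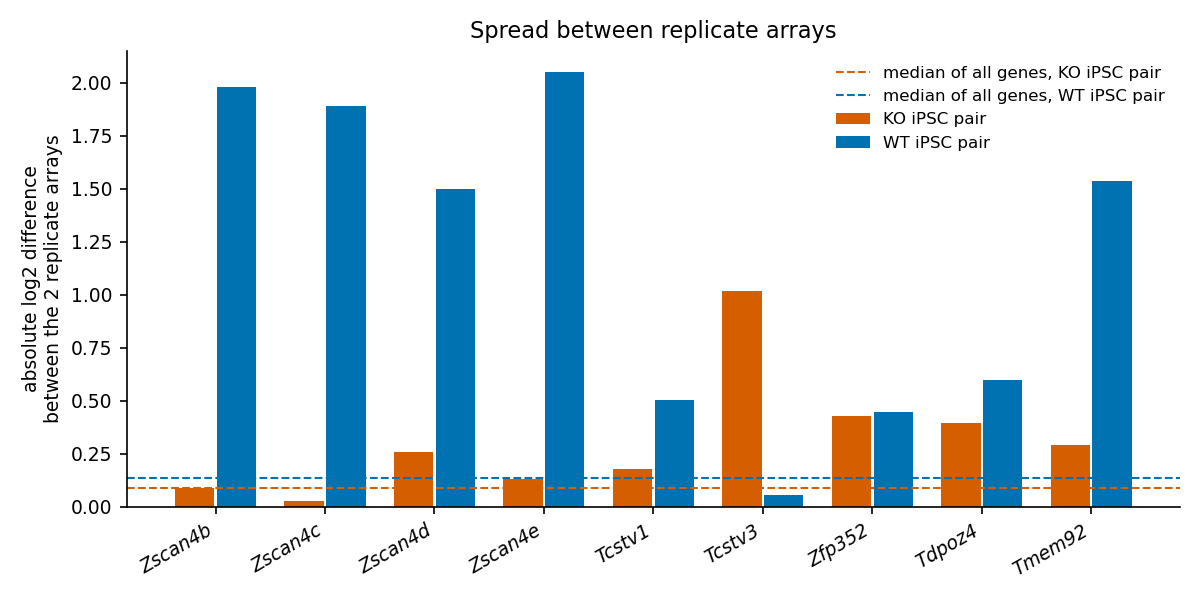
Absolute log2 difference between the 2 replicate arrays (vertical axis) of KO iPSC and of WT iPSC for each of the 9 measured genes, with dashed lines at the median of all genes for each pair. The KO iPSC bars of the 4 Zscan4 genes and Tmem92 stay at 0.29 or less, while their WT iPSC bars reach 1.50 to 2.05.

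The comparison that the series names sets KO iPSC against the 3 WT pluripotent arrays. The 4 Zscan4 genes averaged higher in KO iPSC, and none passed the test. Zscan4b averaged 10.29 ± 0.06 in KO iPSC (SD, n = 2) and 8.72 ± 1.71 in WT pluripotent cells (SD, n = 3), a difference of 1.57 (SE 0.92, limma adjusted p = 0.306). Zscan4c differed by 1.69 (limma adjusted p = 0.223), Zscan4d by 0.82 (adjusted p = 0.396), Zscan4e by 1.73 (adjusted p = 0.278) and Tmem92 by 0.63 (adjusted p = 0.505). Zfp352, below background in KO iPSC, differed by -0.50 (adjusted p = 0.126) and Tcstv3, below background, by 0.79 (adjusted p = 0.122). By limma, 2 of 9 genes had an unadjusted p under 0.05, as had 6992 of all 22180 genes. With an adjusted p of 0.05 as the limit, 0 of 9 passed, while 6.89% of all genes were called higher and 8.81% lower. The median difference was 0.79 over the 9 genes and 0.03 over all genes. That median is the value of Tcstv3, below background, which was 0.29 without KO iPSC replicate 2, so it does not describe the 9 genes well. Both KO arrays exceeded each WT pluripotent array in 2 of the 9 genes, Zscan4c and Tcstv3, against 28.4% of all genes.

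Without WT iPSC replicate 1, 5 of the 9 genes were called higher in KO iPSC, against 7.8% of all genes. They were Zscan4b by 2.47, Zscan4c by 2.51, Zscan4d by 1.42, Zscan4e by 2.66 and Tmem92 by 1.22, with limma adjusted p between 0.0127 and 0.0252. The array left out was the WT array in which these 5 genes were highest, so the calls are no separate support. Without WT iPSC replicate 2, or without WT ESC, 0 of the 9 genes were called. Without KO iPSC replicate 1 the only gene called was Tcstv3, higher in KO iPSC on values below background (limma adjusted p = 0.0308, with 0.708% of all genes called higher).

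Setting KO iPSC against WT iPSC alone, which holds the cell type the same, left smaller differences. Zscan4b averaged 10.29 ± 0.06 in KO iPSC and 9.52 ± 1.40 in WT iPSC (SD, n = 2 each), and the difference of 0.77 was less than the 1.98 between the WT replicates. Zscan4c averaged 9.21 ± 0.02 in KO iPSC and 8.20 ± 1.34 in WT iPSC (SD, n = 2 each), a difference of 1.01. The differences were 0.37 for Zscan4d, 0.90 for Zscan4e and 0.22 for Tmem92. By limma, 0 of 9 genes had an unadjusted p under 0.05, against 6940 of all 22180 genes. After adjustment 0 of 9 passed, against 6.93% of all genes called higher and 9.55% lower.

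Which WT array was used decided both the call and the sign. Without WT iPSC replicate 1, 5 of 9 genes were called higher in KO iPSC, Zscan4b by 1.76, Zscan4c by 1.96, Zscan4d by 1.12, Zscan4e by 1.92 and Tmem92 by 0.99 (limma adjusted p between 0.000139 and 0.00454, with 11.3% of all genes called higher). Without WT iPSC replicate 2, 0 were called higher and 3 lower. The fitted differences of these 3 were -0.61 (Tcstv1, below background on all arrays), -0.71 (Zfp352) and -0.55 (Tmem92), with limma adjusted p between 0.0121 and 0.0370 and 14.2% of all genes called lower. Zfp352 was below background on both KO iPSC arrays, so WT iPSC replicate 1 was at least 1.32-fold higher than KO iPSC. In that fit Zscan4b differed by -0.22, Zscan4d by -0.38 and Zscan4e by -0.13, none called, and Zscan4c by 0.07. In both of these fits the KO pair alone set the spread, and the lone WT array was assumed to vary as little as that pair. Without KO iPSC replicate 1, Tcstv3 was called higher by 1.28 (limma adjusted p = 0.0374, with 0.956% of all genes called higher).

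**Figure D3:**
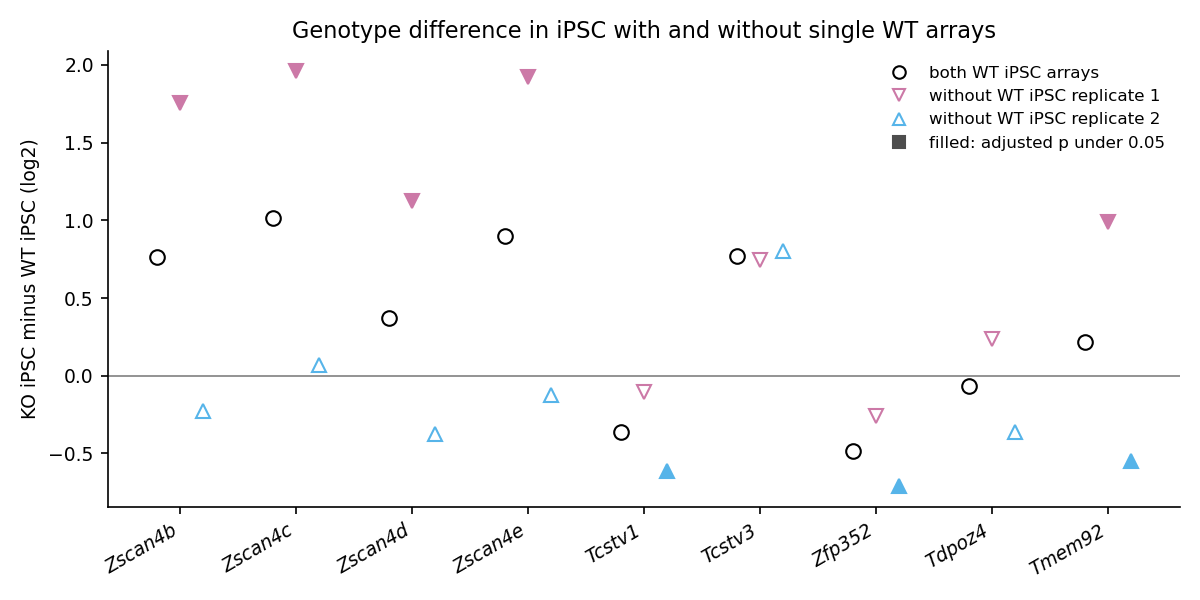
Log2 difference of KO iPSC minus WT iPSC (vertical axis) for each of the 9 measured genes, with both WT iPSC arrays (circles), without WT iPSC replicate 1 (downward triangles) and without WT iPSC replicate 2 (upward triangles). Filled symbols have an adjusted p under 0.05. The 4 Zscan4 genes lie between 1.12 and 1.96 against WT iPSC replicate 2 alone and between -0.38 and 0.07 against WT iPSC replicate 1 alone.

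WT ESC had less Zscan4 signal than either WT iPSC array. WT ESC against WT iPSC differed by -2.41 for Zscan4b (SE 0.77, limma adjusted p = 0.321), -2.05 for Zscan4c, -1.34 for Zscan4d, -2.51 for Zscan4e and -1.23 for Tmem92. For Zscan4c, below background in WT ESC, the mean of the WT iPSC arrays was at least 3.72-fold higher. The bound was at least 7.17-fold for WT iPSC replicate 1 alone and at least 1.93-fold for replicate 2 alone. By limma, 3 of 9 genes had an unadjusted p under 0.05, as had 2704 of all 22180 genes. After adjustment 0 of 9 were called, with 0.0812% of all genes called in each direction. The count was 3 lower without WT iPSC replicate 1 (Zscan4b at -1.42, Zscan4c at -1.10 and Zscan4e at -1.48), where 1.83% of all genes were called lower. It was 6 lower without WT iPSC replicate 2, where 5.38% were, and 1 of the 6 was Tcstv1, below background. In both of these fits 1 array stood against 1 array, and the KO iPSC pair alone set the spread. Against WT iPSC replicate 2, the nearer array, 3 of 9 genes were more than 2-fold lower in WT ESC by their measured values, as were 0.6% of all genes. Of the 3, Zscan4b and Zscan4e were detected in WT ESC. Zscan4c was not, and its lower bound of 1.93-fold cannot show whether it was past 2-fold. WT ESC is 1 array, and its own spread is unknown.

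The cell type difference was large and passed the test. In iPSC against MEF, with genotype held, 5 of 9 genes were higher in iPSC, against 16% of all genes called higher and 14.7% lower. Since the MEF arrays were below background for the 4 Zscan4 genes, their folds are lower bounds: at least 11.4-fold for Zscan4b (fitted difference 4.71, SE 0.54, limma adjusted p = 0.00312) and at least 19.7-fold for Zscan4e (6.23, SE 0.61, adjusted p = 0.00206). Zscan4c was at least 4.93-fold higher (limma adjusted p = 0.0111) and Zscan4d at least 2.96-fold (adjusted p = 0.0235). Tmem92, detected in MEF, was 3.29-fold higher (difference 1.72, SE 0.43, limma adjusted p = 0.0340). Each of the 5 pluripotent arrays exceeded both MEF arrays in these 5 genes, as in 23% of all genes. WT ESC, which was not in this fit, exceeded WT MEF by 2.09 for Zscan4b and 3.13 for Zscan4e. It did so by only 0.35 for Zscan4d and 0.30 for Tmem92. For Zscan4c the gap was 0.60, with WT ESC and both MEF arrays below background. Without either KO iPSC array in turn, 3 remained called, and Zscan4d and Tmem92 did not (limma adjusted p between 0.0705 and 0.101), while 10.5% of all genes were called higher without replicate 1 and 10.1% without replicate 2.

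The MEF pair, 1 array per genotype, gave no test. KO minus WT MEF differences lay between -0.30 and 0.35 with a median of -0.03, and 0 of 9 genes were past 2-fold, against 4.56% of all genes. Only Tmem92 was above background there. The interaction asks whether the genotype difference in iPSC differs from that in MEF. With limma, 0 of 9 genes had an unadjusted p under 0.05, against 5662 of all 22180 genes. After adjustment 0 of 9 passed the interaction, against 3.07% of all genes higher and 5.48% lower. Without WT iPSC replicate 1, 5 passed it as higher, as did 9.4% of all genes, and without replicate 2, Zscan4b passed it as lower (-0.58), as did 12.6% of all genes. The KO iPSC pair alone set the spread in both of these fits too.

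Other genes known from the 2-cell stage were listed to see whether they followed the same arrays. They include Zscan4a, from the same run as the Zscan4 genes above, and related genes such as Tdpoz1 to Tdpoz3 and Usp17la to Usp17le. Counts over this list are therefore not counts of independent genes. Of 43 listed, 31 were measured, 12 were not analysed here, and 17 of the 31 were below background on all 7 arrays. Of the 31, 28 were higher in WT iPSC replicate 1 than in replicate 2, against 48.9% of all genes, and 7 were more than 2-fold higher. Of the 7, those detected on both arrays were Usp17le (2.42), Sp110 (2.18) and Gm2022 (1.83). Another 3 were below background in replicate 2, and WT iPSC replicate 1 was at least 3.65-fold higher for Tdpoz3, 2.62-fold for Pramel6 and 2.10-fold for Gm5662. B020031M17Rik was below background on all arrays. These 7 were named after their values were seen.

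In 5 of the 7 both KO iPSC arrays were also more than 2-fold above WT iPSC replicate 2 by their measured values. The same held for 52 of all 280 genes that were more than 2-fold higher in WT iPSC replicate 1 than in replicate 2 (18.6%). Both counts use replicate 2 as the low array, so they share its error. The 280 genes include the 7, 5 of the 9 measured genes and 12 of the 22 fibroblast markers, so the 18.6% is no neutral yardstick. Of the 7, Gm5662 was below the background of 6.37 in replicate 2 and stood at 6.66 and 6.88 in KO iPSC. The lower bound for Gm5662 therefore cannot show whether it was past 2-fold. Tdpoz3, from the same gene family as Tdpoz4, stood at 8.83 and 8.23 in KO iPSC, at 8.24 and 5.09 in WT iPSC, at 4.35 in WT ESC, at 4.78 in KO MEF and at 4.81 in WT MEF. Usp17le, from a family of deubiquitinase genes, stood at 8.66 and 8.85 in KO iPSC, at 9.18 and 6.76 in WT iPSC, at 6.37 in WT ESC, at 6.09 in KO MEF and at 5.89 in WT MEF. For Tdpoz3 the last 4 of these values were below background, and for Usp17le those of both MEF were. For both genes WT iPSC replicate 2 lay closer to WT ESC than to the other iPSC arrays.

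Pramel6 did not share that pattern. It stood at 6.31 and 6.25 in KO iPSC, at 7.75 and 6.27 in WT iPSC and at 5.94 in WT ESC, so WT iPSC replicate 1 was high alone. The KO mean was above WT iPSC replicate 2 in 28 of the 31 genes (54.9% of all genes) and above WT iPSC replicate 1 in 13 (53.8% of all genes). For the 9 genes the same counts were 7 and 2.

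**Figure D4:**
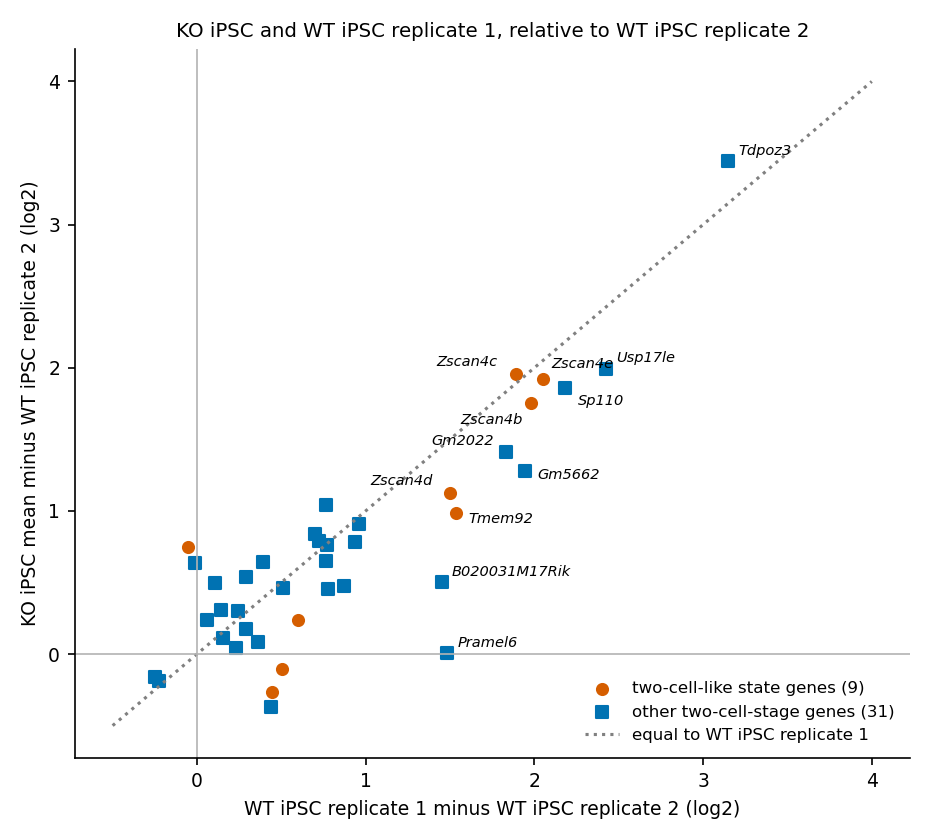
WT iPSC replicate 1 (horizontal axis) and the mean of the KO iPSC arrays (vertical axis), both as log2 differences from WT iPSC replicate 2, for the 9 measured genes (circles) and 31 other 2-cell-stage genes (squares). The dotted line marks equal distance, and since both axes subtract the same array, points lean along it whatever the genes are. Tdpoz3 (below background in replicate 2), Usp17le, Sp110 and the Zscan4 genes are high on both axes, and Pramel6 is high on the horizontal axis alone.

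In KO iPSC against WT pluripotent arrays, 6 of the 31 genes had an unadjusted limma p under 0.05, as had 6992 of all 22180 genes. By adjusted p, 2 were called higher and 0 lower, beside 6.89% and 8.81% of all genes. The count of higher genes therefore does not set the list apart. The 2 were Tdpoz1 by 0.71 and Obox2, an oocyte-type homeobox gene, by 0.40 (limma adjusted p = 0.0204 and 0.0362), both below background on all arrays. Tdpoz3 differed by 2.64 without passing (limma adjusted p = 0.177). In iPSC against MEF, 6 of 31 were called higher and 0 lower, beside 16% and 14.7% of all genes. Of the 6, 4 were named by the size of the fitted difference. Gm2022, detected in MEF, was higher by 2.41, Usp17le was at least 3.90-fold higher and Gm5662 at least 1.16-fold, and Gm2016 was below background on all arrays, so no fold is given. Duxf3, the gene of the factor DUX, was below background on all 7 arrays, between 3.99 and 4.41.

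Genes listed as factors reported to favour the state were lower or not called in KO iPSC. Which way each of them acts on the state was not tested here, so the list name gives no meaning to a difference. Of 12 measured, 0 were higher and 3 lower than in WT pluripotent cells (8.81% of all genes were lower). Tet2, which oxidises methylated DNA, differed by -1.28 (limma adjusted p = 0.00102), Kdm5b, a histone demethylase, by -1.23 (adjusted p = 0.00146) and Tet1 by -0.35 (adjusted p = 0.0396). Against WT iPSC alone, Tet1 did not pass (-0.32, limma adjusted p = 0.0684). Tet2 stood at 10.35 and 10.46 in KO iPSC, at 11.67 and 11.69 in WT iPSC and at 11.69 in WT ESC, with no overlap. Dppa2 and Dppa4, which act upstream of Dux in mouse ESC, were not called in this comparison. In iPSC against MEF, 7 of the 12 were higher and 2 lower, beside 16% and 14.7% of all genes. Among the 7 were Dppa2 at least 45.5-fold, Zfp42 at least 14.7-fold, Tet1 by 4.48 and Dppa4 by 3.36.

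Factors reported to restrain the state included 1 higher and 4 lower in KO iPSC, of 38 measured out of 40 listed, beside 6.89% higher and 8.81% lower over all genes, so these counts set the list apart in neither direction. Lin28a, an RNA-binding protein that blocks let-7 processing, differed by -1.85 (limma adjusted p = 0.00668), and it stood at 8.77 and 8.85 in KO iPSC, at 10.20 and 10.79 in WT iPSC and at 10.99 in WT ESC. Cbx3, a heterochromatin protein, differed by -0.45, Pcgf6, a Polycomb subunit, by -0.40 and Ehmt2, a histone H3 lysine methyltransferase, by -0.39. Rif1, known in mouse ESC to restrain Zscan4, differed by 0.39 (limma adjusted p = 0.0374). Against WT iPSC alone, Rif1 (limma adjusted p = 0.0658), Pcgf6 (0.0516) and Ehmt2 (0.0734) did not pass. In iPSC against MEF 27 of the 38 were higher and 1 lower, beside 16% and 14.7% of all genes. Among the 27 were Rif1 by 3.31, Lin28a by 2.53, Uhrf1 by 2.30 and L3mbtl2 by 2.22.

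Other cell types were looked for beside these values. The intensities of the 9 genes summed to 4997 and 4860 in KO iPSC, 5601 and 1584 in WT iPSC, 804 in WT ESC, 407 in KO MEF and 412 in WT MEF, so they were lowest where the fibroblast sums given above were highest. The WT iPSC array with more fibroblast signal was also the one with more Zscan4 signal, while both MEF arrays were below background for the 4 Zscan4 genes. In KO iPSC against WT pluripotent arrays, 8.81% of all genes were lower and 6.89% higher. In that comparison 5 of 22 fibroblast markers were lower and 0 higher. The differences of these 5 were -5.08 for Bgn, -4.26 for Lox, -4.14 for Acta2, -2.58 for Tagln and -2.44 for Col1a1. Of 12 pluripotency markers, 3 were lower and 0 higher, with differences of -2.18 for Fgf4, -1.18 for Utf1 and -0.48 for Tdgf1. Of 13 extraembryonic and mesendoderm markers, Gata6 was higher (1.15) and Dab2 lower (-1.02). The part of other cell types in the genotype comparison was not tested.

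The genes outside the 9 whose profile over the 7 arrays lay nearest to the mean profile of the 9 were Notum, AA623943, Slc30a2, Dcaf12l1 and Spic, among 1613 genes with at least as wide a range. The root mean square difference of the centred profiles was 0.25 for Notum, a secreted enzyme that acts on Wnt proteins, 0.28 for AA623943, 0.28 for the zinc transporter gene Slc30a2, 0.29 for Dcaf12l1 and 0.31 for the ETS factor gene Spic. Spic stood at 8.22 and 8.29 in KO iPSC, at 7.88 and 6.48 in WT iPSC, at 6.27 in WT ESC, at 5.28 in KO MEF and at 5.47 in WT MEF. Notum stood at 8.85 and 9.08 in KO iPSC, at 9.15 and 8.67 in WT iPSC, at 7.40 in WT ESC, at 6.60 in KO MEF and at 6.64 in WT MEF, with a smaller gap between the WT iPSC arrays than the Zscan4 genes had. Since these 5 were chosen for their likeness, their values are a description.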

How the data were processed

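The deposited values are probe set intensities on a linear scale, which the authors made by RMA in Affymetrix Expression Console (version 1.3.0.187), as the submitters' processing notes state. The plan allowed for log2 or linear values, so log2 was taken here with no further scaling. Probe sets with 1 gene symbol in the platform annotation were kept (23521 of 33649), and the one with the highest mean stood for a gene, giving 22180 genes. All 9 measured genes matched a RefSeq gene of GRCm38.p6 by Entrez identifier. There were 0 unmapped columns.

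Tests used R 4.3.3 and limma 3.58.1 (functions lmFit and eBayes, two-sided, Benjamini-Hochberg over all genes, threshold 0.05). KO iPSC against WT pluripotent arrays used 5 arrays. The 7-array fit had 1 coefficient per group, with single arrays assumed to vary like the iPSC pairs, and gave the interaction, the difference of WT ESC from WT iPSC and that of KO from WT iPSC. iPSC against MEF used 6 arrays with genotype as a term. Only the fits of KO iPSC against WT pluripotent arrays and against WT iPSC were tried on simulated data. Comparisons share arrays, so no overlap between them was counted. A fold is written "at least" where every dim array lay below its background, against the mean background of those arrays. Arrays have no read depth, and their number limits the precision.

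Named genes were all listed members, Nanog, up to 6 genes per other list past the threshold in KO iPSC against WT pluripotent arrays and up to 4 in iPSC against MEF by size, and the 5 nearest profiles. The members and all lists were chosen with earlier results of these data known. The 2 replicate numbers were not taken to pair the iPSC arrays, since the labels state no pairing. Over 22180 genes, the replicate 1 minus replicate 2 differences of the KO and WT pairs correlated at 0.017. With 1 pair per genotype, this correlation cannot settle whether arrays of the same number were prepared together.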

Additional observations from a re-analysis of the deposited data

Results flagged for a closer look

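None of the 9 measured genes met a criterion for a closer look, and no group had enough arrays for a check of single outlying samples. Among the genes of the other lists that the text names, 11 had a genotype difference in iPSC that differed from that in MEF by the limma interaction test (adjusted p under 0.05, 1 MEF array per genotype). Lower in KO iPSC relative to the MEF difference were Acta2 (-4.25), Tagln (-2.59), Fgf4 (-2.50), Tet2 (-1.93), Kdm5b (-1.41), Dab2 (-1.41), Utf1 (-1.05) and Tet1 (-0.79). Higher were Uhrf1 (1.19), Tdpoz1 (1.13), on values below background on all arrays, and L3mbtl2 (0.88). The 11 limma adjusted p-values lay between 0.00598 and 0.0470.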

How the results depend on the processing

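Other scalings, the mean of all probe sets of a gene, a filter on dim genes and another eBayes setting left every count of called members as it was. In WT ESC against WT iPSC, 36 of all genes were called, against 22 when the dimmest genes were left out and 95 with trend and robust fitting. With the replicate block, KO iPSC against WT iPSC called 1 member lower, Zfp352 (-0.49, limma adjusted p = 0.0411, below background in KO iPSC), and 3279 of all genes against 3656. The labels do not say whether the numbers pair the arrays. Leaving out 1 array at a time moved counts most. In KO iPSC against WT pluripotent arrays, 341 to 4167 of all genes (3483 with all arrays) and 0 to 5 members higher were called. In KO iPSC against WT iPSC it was 519 to 5979 (3656), 0 to 5 higher and 0 to 3 lower. In WT ESC against WT iPSC it was 1 to 2289 and 0 to 6 lower. In iPSC against MEF it was 4405 to 5808 (6802) and 3 to 5 higher. In the interaction it was 89 to 5016 (1897), 0 to 5 higher and 0 to 1 lower. Signs turned in single genes. In KO iPSC against WT pluripotent arrays the differences ranged over Tdpoz4 -0.11 to 0.31. In KO iPSC against WT iPSC the differences ranged over Tdpoz4 -0.36 to 0.24, Zscan4b -0.22 to 1.76, Zscan4d -0.38 to 1.12, Zscan4e -0.13 to 1.92 and Tmem92 -0.55 to 0.99. In WT ESC against WT iPSC the differences ranged over Zfp352 -0.17 to 0.27. In iPSC against MEF the differences ranged over Tcstv3 -0.078 to 0.36. In the interaction the differences ranged over Tdpoz4 -0.41 to 0.19, Tcstv1 -0.48 to 0.028, Zfp352 -0.44 to 0.0043, Zscan4b -0.58 to 1.40, Zscan4c -0.26 to 1.62, Zscan4d -0.35 to 1.15 and Tmem92 -0.39 to 1.14. The cause was not tested.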
